A study of Mus musculus with 12 samples.

Results

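The 10 genes described here belong to the response to low oxygen and to glycolysis, and were followed across 12 libraries of RNA from wounds in the back skin of diabetic mice. They were taken by name, as a list: the glucose transporter gene Slc2a1, the glycolytic genes Hk2, Pfkfb3, Pgk1 and Ldha, and the hypoxia-induced genes Egln3, Bnip3, Adm, Ndrg1 and Car9. All 10 were among the 24062 symbols counted and among the 16267 genes tested. The mice were C57BL/6 animals made diabetic with streptozotocin, a toxin of insulin-producing cells, which all groups share. There were 4 treatment labels with 3 mice and 3 libraries each, 2 of them for the compound MCS-01 (pre-MCS-01 and post-MCS-01), 1 for DSCG and 1 called blank. MCS-01 is described as a mast cell stabilizer and is known here only by its code name. The letters DSCG usually stand for disodium cromoglycate, a drug of the same class, although the labels do not spell them out. Blank was taken as the control. Dose, route, wound age and mouse age are not given in the labels, and pre and post are not defined there, so the 4 labels are used as the groups.

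When oxygen is short, the alpha subunits of the hypoxia-inducible factors escape the prolyl hydroxylases that mark them for destruction, and they switch on genes for glucose uptake, glycolysis, blood vessel growth and acid export. In healing skin these genes are known from the wound edge, from migrating keratinocytes and from neutrophils and macrophages, which burn glucose to lactate even where oxygen is present. The same glycolytic genes also answer to growth factors and inflammatory signals, so their level is not a measure of oxygen alone.

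The factor binds DNA at a short core, ACGTG or GCGTG, and both letter strings were searched on both strands of the 250 bases before each annotated start. RefSeq promoters on GRCm38.p6 were found for 9 of the 10 genes, Ndrg1 being the exception. All 9 held at least 1 match, as did 41.5% of 27025 genes with a promoter entry. Counted by window, 11 of 11 starts of these genes and 38.6% of 32851 starts held a match. The windows of Pfkfb3, Car9, Slc2a1 and Bnip3 overlapped annotated exons of the same gene. The 2 Ldha windows overlapped no exon but lay within the gene, which starts at 46841475 in GENCODE M21. The windows of these 5 genes thus did not lie wholly before every annotated start. A match is a string of letters and not a site of binding. The 4 windows below are shown because Pgk1, Ldha and Hk2 had the smallest p of the 10 for post-MCS-01 against blank and Adm peaked in another library than the rest. Capitals mark the matches, and a capital run of CACGTG reads as ACGTG on both strands.
Pgk1, chrX:106186850-106187099, plus strand: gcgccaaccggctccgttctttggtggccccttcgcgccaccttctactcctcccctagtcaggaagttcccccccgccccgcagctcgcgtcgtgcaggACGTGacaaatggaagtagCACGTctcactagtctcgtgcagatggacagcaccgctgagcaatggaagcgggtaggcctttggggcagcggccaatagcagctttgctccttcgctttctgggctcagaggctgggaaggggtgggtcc
Ldha, chr7:46845554-46845803, plus strand: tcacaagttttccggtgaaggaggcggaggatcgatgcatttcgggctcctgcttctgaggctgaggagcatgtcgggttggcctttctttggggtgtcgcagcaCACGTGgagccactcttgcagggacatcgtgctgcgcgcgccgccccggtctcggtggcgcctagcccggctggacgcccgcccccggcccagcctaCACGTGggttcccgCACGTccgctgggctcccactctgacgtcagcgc
Hk2, chr6:82774455-82774704, minus strand: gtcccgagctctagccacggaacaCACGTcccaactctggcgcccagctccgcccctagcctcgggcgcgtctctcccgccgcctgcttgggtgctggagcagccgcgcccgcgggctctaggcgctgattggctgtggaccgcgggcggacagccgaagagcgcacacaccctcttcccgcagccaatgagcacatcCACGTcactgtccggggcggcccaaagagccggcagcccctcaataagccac
Adm, chr7:110627407-110627656, plus strand: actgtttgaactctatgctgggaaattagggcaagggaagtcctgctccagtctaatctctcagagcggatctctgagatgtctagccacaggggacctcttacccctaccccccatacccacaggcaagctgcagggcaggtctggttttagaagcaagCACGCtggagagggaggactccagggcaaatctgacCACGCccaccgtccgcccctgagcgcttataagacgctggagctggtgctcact
The Ldha window, at the more upstream of its 2 listed starts, held 5 matches on the 2 strands together, at 3 places. The matches of Adm were both GCGTG on the other strand, at 90 and 54 bases before its start, and its window held no ACGTG.

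Levels are CPM, the deposited raw counts of a gene scaled to a common library size with TMM factors. Reads counted to genes numbered 37702643 to 50461867 in 11 libraries and 3835042 in blank replicate 3, where Car9 rested on 12 reads and every other gene of the 10 on at least 63. Long transcripts lay low relative to the average library in 3 libraries, replicate 2 of pre-MCS-01, replicate 2 of DSCG and replicate 3 of blank (Spearman's rho across genes between log2 CPM deviation and exon length of -0.384, -0.329 and -0.319, against -0.0574 to 0.338 in the other 9). These rho values are across genes, which are no replicates, and describe the libraries. In bulk tissue, fewer cells of a type and less RNA per cell cannot be told apart. Skin was the labelled tissue, and the markers of basal and differentiated keratinocytes (Krt5, Krt14, Krt1, Krt10 and Lor) summed to 19112 to 72333 CPM over the 12 libraries.

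Per kilobase of exon, Ldha was the most abundant of the 10, with a mean of 272 CPM per kilobase over the 12 libraries, followed by Pgk1 at 181, Egln3 at 102 and Slc2a1 at 87.9 CPM per kilobase. Ndrg1, Bnip3 and Hk2 averaged 29.7, 23.5 and 18.2 CPM per kilobase. Adm, Pfkfb3 and Car9 came last at 10.5, 6.71 and 1.61 CPM per kilobase. Over the libraries the range of each gene overlapped that of its neighbour in this order, down to Pfkfb3, whose lowest value of 2.16 lay below the highest of Car9 at 2.47 CPM per kilobase. The full exon length was the divisor. Of 50-base windows of the transcripts, 53.9% for Pgk1, 47.2% for Bnip3 and 9.3% for Ldha also occurred in other annotated genes. The places of Pgk1 and Bnip3 in this order are therefore uncertain. In CPM, Pfkfb3 varied 10.2-fold between its lowest and highest library, Slc2a1 7.52-fold, Adm 6.72-fold and Egln3 6.29-fold, while Ldha, Pgk1 and Car9 varied 2.35-fold, 2.46-fold and 2.32-fold.

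**Figure D1:**
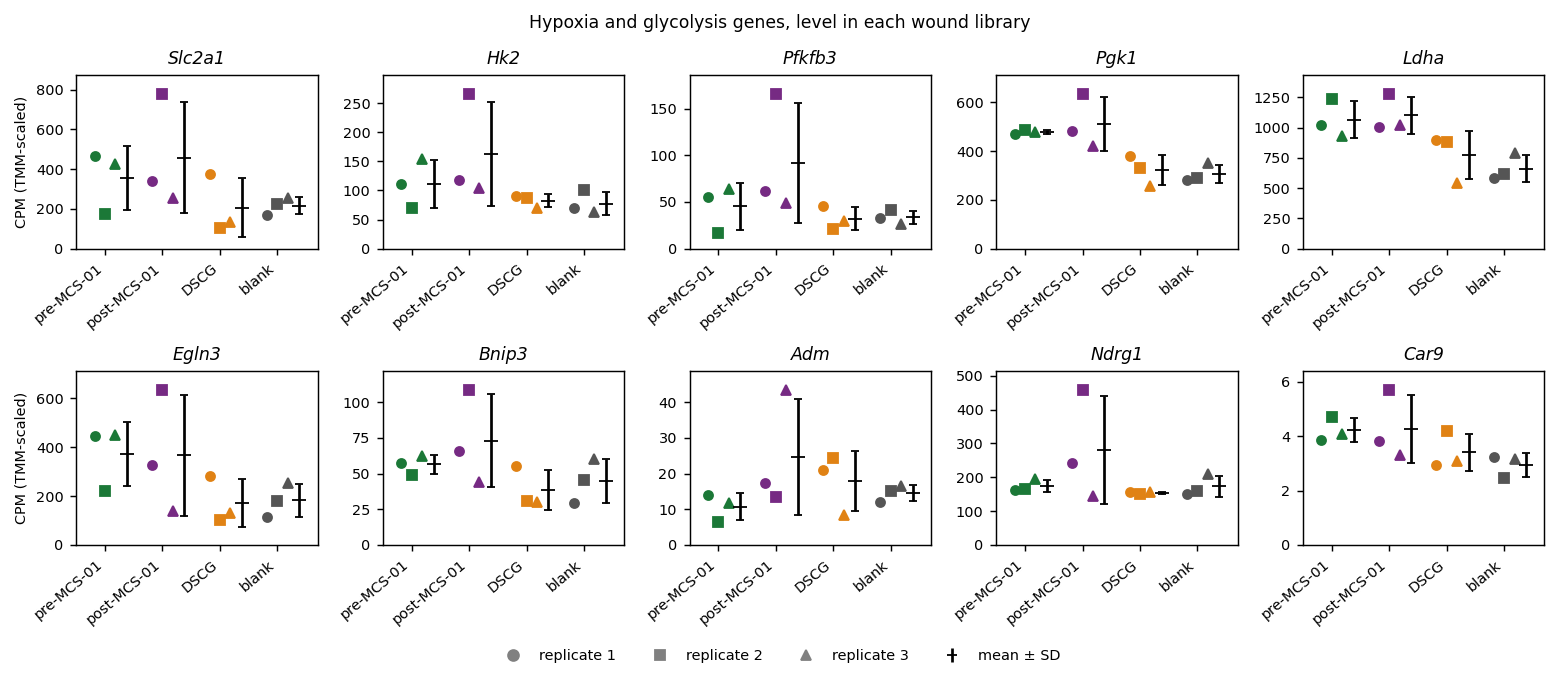
CPM of each of the 10 genes (vertical axes from 0) in the 3 libraries of each group, with marker shape for the replicate and a bar for mean ± SD. Post-MCS-01 replicate 2 (square) was the highest of the 12 libraries for 9 of the 10 genes, and Adm was highest in post-MCS-01 replicate 3.

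Glucose enters through the transporter that Slc2a1 encodes, and Hk2 traps it by phosphorylation. Slc2a1 (GRCm38, as for all gene positions given here, chromosome 4, 119108711 to 119137983) stood at 468, 172 and 424 CPM in pre-MCS-01 wounds, 342, 778 and 253 CPM in post-MCS-01, 374, 104 and 136 CPM in DSCG, and 170, 222 and 256 CPM in blank wounds. All 4 groups overlapped, and 1 library in each of pre-MCS-01 (replicate 2), post-MCS-01 (replicate 2) and DSCG (replicate 1) lay well away from its group. Hk2 (chromosome 6, 82725025 to 82774454) stood at 111, 70.6 and 154 CPM in pre-MCS-01 wounds, 118, 266 and 105 CPM in post-MCS-01, 89.7, 87.4 and 69.6 CPM in DSCG, and 69.1, 100.1 and 62.6 CPM in blank. The 3 post-MCS-01 values were above all of DSCG and blank, by a narrow margin apart from replicate 2.

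Pfkfb3 (chromosome 2, 11471433 to 11554077) makes the sugar phosphate that activates phosphofructokinase, the main control point of glycolysis. It stood at 55.4, 16.3 and 64.1 CPM in pre-MCS-01 wounds, 62.0, 166 and 48.4 CPM in post-MCS-01, 45.4, 21.3 and 29.6 CPM in DSCG, and 33.1, 40.8 and 26.2 CPM in blank. Its exons span 7561 bases, the longest of the 10, and its lowest value in pre-MCS-01, DSCG and blank fell in the library of each group that was short of long transcripts. The part of transcript length in these low values was not tested gene by gene.

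Pgk1 (chromosome X, 106187100 to 106203699) encodes phosphoglycerate kinase, which makes ATP late in glycolysis. It stood at 472, 488 and 478 CPM in pre-MCS-01 wounds, 481, 635 and 421 CPM in post-MCS-01, 380, 330 and 259 CPM in DSCG, and 281, 290 and 350 CPM in blank. Both MCS-01 groups lay above every DSCG and blank library. Ldha (chromosome 7, 46841475 to 46855627), whose enzyme turns pyruvate into lactate, stood at 1026, 1234 and 935 CPM in pre-MCS-01 wounds, 1002, 1280 and 1023 CPM in post-MCS-01, 898, 880 and 545 CPM in DSCG, and 583, 615 and 789 CPM in blank. The same separation held for Ldha, with pre-MCS-01 replicate 3 at 935 CPM next to DSCG replicate 1 at 898 CPM. The share of all genes with this separation was not computed. When an MCS-01 group was compared with DSCG or blank alone, 2.53% to 8.92% of all genes were higher without overlap. Of 50-base windows of the Pgk1 transcripts, 53.9% also occurred in 5 other annotated genes, among them Pgk1-ps1 and Pgk1-rs7, and for Ldha the share was 9.3%. Counts of Pgk1 are therefore uncertain, since reads that matched several places were kept out of the gene counts. Reads from the shared stretches may thus be missing from its count, and how many was not measured.

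Egln3 (chromosome 12, 54178981 to 54203860) encodes a prolyl hydroxylase that marks hypoxia-inducible factors for destruction and is itself induced by them. It stood at 445, 219 and 449 CPM in pre-MCS-01 wounds, 326, 632 and 139 CPM in post-MCS-01, 283, 100.4 and 131 CPM in DSCG, and 115, 179 and 252 CPM in blank. Each MCS-01 group had 1 library within the range of blank. Bnip3 (chromosome 7, 138890836 to 138909519), whose product sends mitochondria to autophagy, stood at 57.6, 49.1 and 62.5 CPM in pre-MCS-01 wounds, 65.8, 108 and 44.4 CPM in post-MCS-01, 55.0, 31.1 and 29.8 CPM in DSCG, and 29.2, 45.5 and 60.3 CPM in blank. All groups overlapped with blank, and 47.2% of its 50-base windows occurred in 6 other annotated genes, so its counts are uncertain in the same way as those of Pgk1.

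Ndrg1 (chromosome 15, 66929318 to 66969640), a stress-responsive gene of differentiating epithelia, stood at 162, 166 and 196 CPM in pre-MCS-01 wounds, 243, 457 and 144 CPM in post-MCS-01, 156, 151 and 156 CPM in DSCG, and 152, 158 and 209 CPM in blank. Outside 2 post-MCS-01 libraries it kept between 144 and 209 CPM. Car9 (chromosome 4, 43506966 to 43513729), a carbonic anhydrase of the cell surface that helps to export acid, was low throughout, at 3.85, 4.72 and 4.10 CPM in pre-MCS-01 wounds, 3.80, 5.69 and 3.30 CPM in post-MCS-01, 2.94, 4.20 and 3.07 CPM in DSCG, and 3.23, 2.45 and 3.14 CPM in blank. Its 2 MCS-01 groups lay above blank, by 3.30 against 3.23 CPM at the closest point.

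Adm (chromosome 7, 110627661 to 110629820) encodes adrenomedullin, a peptide that widens vessels and acts on endothelium. It stood at 13.9, 6.45 and 11.7 CPM in pre-MCS-01 wounds, 17.4, 13.4 and 43.3 CPM in post-MCS-01, 20.9, 24.3 and 8.47 CPM in DSCG, and 12.1, 15.1 and 16.5 CPM in blank. In post-MCS-01 replicate 2, where the other 9 peaked, Adm was lowest of its group, and its peak was in replicate 3, where each of the others except Ldha was lowest of its group. The exons of Slc2a1, Bnip3, Ndrg1 and Car9 overlap annotated genes on the opposite strand, and without a stated strand setting reads of the 2 strands cannot be told apart.

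**Figure D2:**
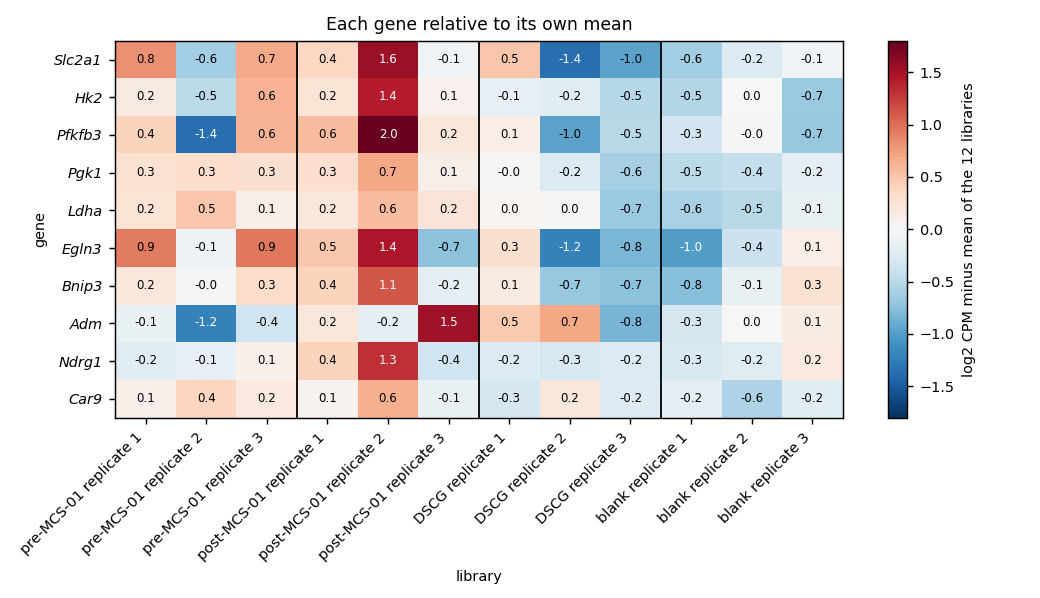
Log2 CPM of each gene (rows) minus its mean over the 12 libraries, by library (columns), red above and blue below the mean, with vertical lines between groups. Post-MCS-01 replicate 1 was above the mean for 10 of 10 genes and replicate 2 for 9, while DSCG replicate 3 and blank replicate 1 were above it for 0.

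Averaged over the 10 genes, log2 CPM relative to the 12-library mean was 0.28, -0.28 and 0.35 in pre-MCS-01, 0.33, 1.06 and 0.07 in post-MCS-01, 0.08, -0.40 and -0.61 in DSCG, and -0.51, -0.25 and -0.12 in blank. The 3 post-MCS-01 libraries were above all 3 of blank on this average, and the groups pre-MCS-01 and DSCG each overlapped blank. Post-MCS-01 overlapped DSCG, with replicate 3 at 0.07 below DSCG replicate 1 at 0.08. Without Adm, post-MCS-01 replicate 3 averaged -0.09, next to blank replicate 3 at -0.15.

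Post-MCS-01 wounds were compared with blank wounds to ask whether the coded compound went with another level of these genes. Pfkfb3 averaged 92.1 ± 64.3 CPM in post-MCS-01 and 33.4 ± 7.33 CPM in blank (SD, n = 3 each). It was 2.74-fold higher in post-MCS-01, a log2 fold change of 1.46 ± 0.55 (SE) with an adjusted p of 0.407. Hk2 averaged 163 ± 89.4 CPM in post-MCS-01 and 77.3 ± 20.0 CPM in blank (1.08 ± 0.38, adjusted p = 0.360). Pgk1 averaged 512 ± 110 CPM in post-MCS-01 and 307 ± 37.6 CPM in blank (0.74 ± 0.22, adjusted p = 0.248), the smallest p of the 10. Ldha was 1.66-fold higher in post-MCS-01 (0.73 ± 0.25, adjusted p = 0.332).

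All 10 log2 fold changes were positive against blank, from 0.55 for Car9 to 1.46 for Pfkfb3, with a median of 0.76 beside -0.01 over all genes tested. None of the 10 passed the threshold in edgeR, nor did any gene at all (0% of 16267). At an unadjusted p under 0.05 there were 4 of 10, all higher, against 3.91% of all genes. In 5 of the 10 (Hk2, Pfkfb3, Ldha, Pgk1 and Car9) the post-MCS-01 values lay above blank without overlap, as did 8.92% of all genes. DESeq2 (2.34% of all genes) and limma-voom (0%) also called 0 of 10. With limma-voom and library quality weights 2 passed, Ldha (adjusted p = 0.0200) and Pgk1 (adjusted p = 0.0155), where 5.08% of all genes did. Without post-MCS-01 replicate 2 the median was 0.52, Pfkfb3 was at 0.74 and Hk2 at 0.56, and 2 of 10 stood at an unadjusted p under 0.05. That count was also 2 without blank replicate 1, and it was 9 without post-MCS-01 replicate 3. The 3.91% comes from all 12 libraries. Here and below, no share of all genes at an unadjusted p was computed for fits without 1 library.

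Set beside DSCG, post-MCS-01 gave the largest median of the 6 comparisons, 0.89, with all 10 genes positive and a median of -0.01 over all genes. Both comparisons use the same 3 post-MCS-01 libraries. Pfkfb3 was 2.87-fold higher in post-MCS-01 (1.52 ± 0.55, adjusted p = 0.286), and Hk2 averaged 163 ± 89.4 CPM in post-MCS-01 against 82.2 ± 10.99 CPM in DSCG (0.99 ± 0.38, adjusted p = 0.322). Pgk1 averaged 512 ± 110 CPM in post-MCS-01 against 323 ± 61.0 CPM in DSCG (0.67 ± 0.22, adjusted p = 0.228). Bnip3 and Ndrg1 differed by 0.91 ± 0.36 and 0.87 ± 0.33 (adjusted p = 0.349 and 0.332).

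In that comparison 0 of 10 passed in edgeR, where 1.06% of all genes did, and 0 passed with DESeq2 (3.54% of all genes), limma-voom (0.0123%) or limma-voom with quality weights (0%). At an unadjusted p under 0.05 there were 5 of 10, all higher, against 4.63% of all genes. The groups did not overlap for Hk2, Pfkfb3, Ldha and Pgk1, which is 4 of 10 against 7.14% of all genes. Without post-MCS-01 replicate 2 the median was 0.49 and 1 of 10 stood at an unadjusted p under 0.05, and without DSCG replicate 1 it was 8 of 10. Without DSCG replicate 2 or 3 it was 2 of 10. The 4.63% comes from all 12 libraries. With all of them 172 of 16267 genes passed in edgeR. Without DSCG replicate 1 it was 606 of 16526 genes, and without DSCG replicate 2 or 3 it was 0. It was also 0 without any 1 post-MCS-01 library, without blank replicate 3, with an exon-length covariate and in a fit of the 2 groups alone. Leaving out any other 1 library gave 35 to 178 genes. Log2 fold changes without post-MCS-01 replicate 2 were 0.81 for Pfkfb3, 0.51 for Pgk1, 0.47 for Hk2, 0.53 for Bnip3 and 0.36 for Ndrg1.

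Set beside blank, pre-MCS-01 wounds had higher means of 9 of the 10 genes. Pgk1 had a mean of 479 ± 8.16 CPM in pre-MCS-01, against 307 ± 37.6 CPM in blank (0.64 ± 0.22, adjusted p = 0.642). Ldha had a mean of 1065 ± 153 CPM in pre-MCS-01, against 662 ± 111 CPM in blank (0.69 ± 0.25, adjusted p = 0.669). Ndrg1 had a mean of 175 ± 18.7 CPM in pre-MCS-01, against 173 ± 31.2 CPM in blank (0.01 ± 0.33, with a 95% confidence interval of -0.71 to 0.74). Adm was the 1 gene with a lower mean, 10.7 ± 3.82 CPM in pre-MCS-01, against 14.5 ± 2.25 CPM in blank (-0.44 ± 0.49, adjusted p = 0.831).

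The median over the 10 was 0.53 for pre-MCS-01 against blank, beside 0.04 over all genes. None passed in edgeR (0% of all genes), DESeq2 (0.373%) or limma-voom (0%), and 2 of 10 stood at an unadjusted p under 0.05 and higher, against 3.31% of all genes. Ldha, Pgk1 and Car9 did not overlap with blank, 3 of 10 against 8.41% of all genes. With limma-voom and library quality weights 4 passed, Slc2a1 (1.13, adjusted p = 0.0408), Egln3 (1.50, adjusted p = 0.0275), Ldha (adjusted p = 0.0166) and Pgk1 (adjusted p = 0.0144), where 15.3% of all genes did. Without blank replicate 1 or without blank replicate 2, 0 of 10 stood at an unadjusted p under 0.05.

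DSCG wounds had mean levels near those of blank. The 10 log2 fold changes ran from -0.21 for Bnip3 to 0.31 for Adm, with a median of 0.00 beside 0.00 over all genes, and 5 of 10 were positive, as were 49.8% of all genes. None passed in edgeR (0% of all genes), DESeq2 or either limma-voom fit, 0 stood at an unadjusted p under 0.05 (1.03% of all genes), and the groups overlapped for all 10 genes (1.91% of all genes were higher and 1.77% lower without overlap). The intervals were wide: for Pgk1, the narrowest, the log2 fold change was 0.07 with a 95% confidence interval of -0.40 to 0.54, and for Slc2a1 it was -0.08 with an interval of -1.28 to 1.12. A doubling of Slc2a1 in DSCG is therefore not excluded by these data.

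**Figure D3:**
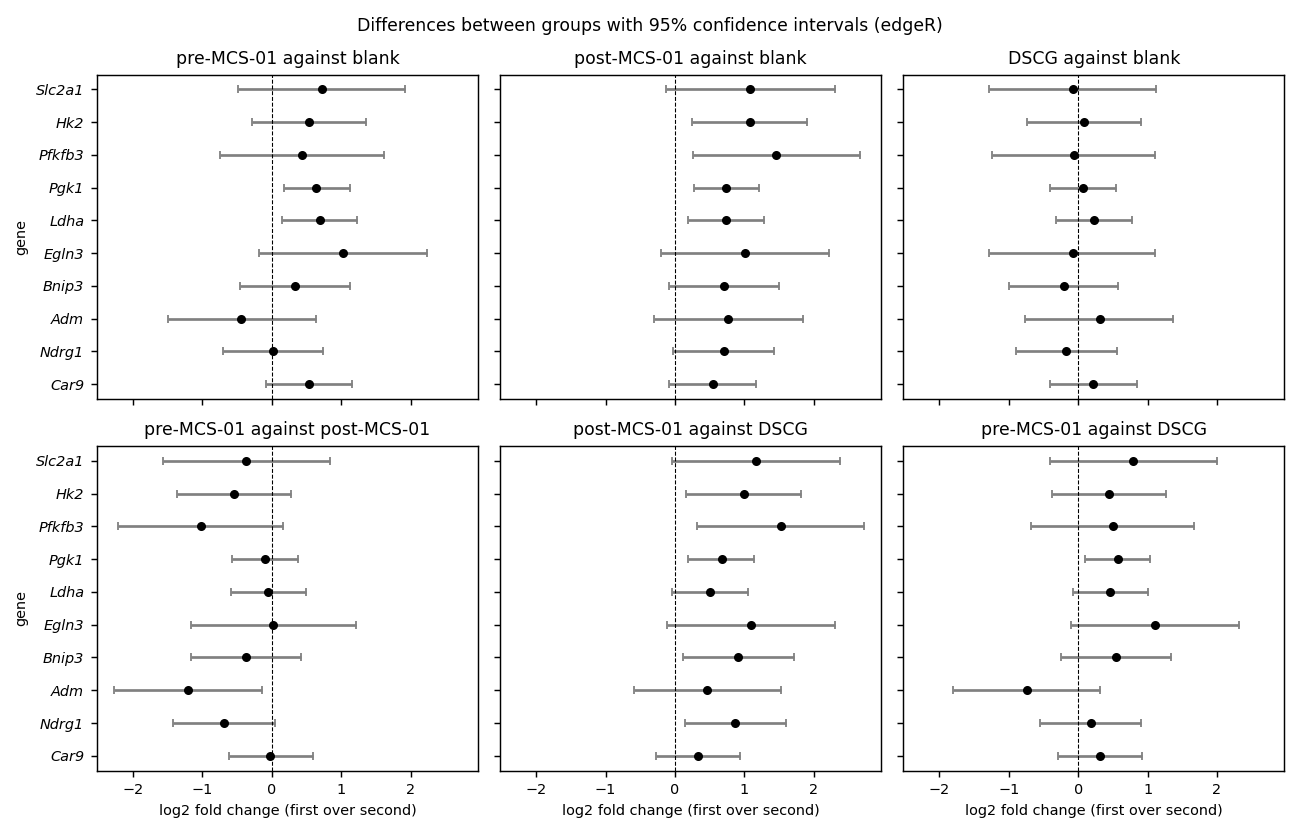
Log2 fold change of each gene in the 6 comparisons (points, first group over second) with 95% confidence intervals from edgeR (bars) and a dashed line at 0. Against blank, all 10 points are above 0 for post-MCS-01, 9 for pre-MCS-01 and 5 for DSCG.

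Between the 2 MCS-01 labels, Adm had the largest difference of the 10, with 10.7 ± 3.82 CPM in pre-MCS-01, against 24.7 ± 16.3 CPM in post-MCS-01 (-1.21 ± 0.49, adjusted p = 0.421). Without post-MCS-01 replicate 3 the difference of Adm was -0.55. Pfkfb3 (-1.02 ± 0.54, adjusted p = 0.555), Ndrg1 (-0.69 ± 0.33, adjusted p = 0.512) and Hk2 (-0.55 ± 0.37, adjusted p = 0.649) were also lower in mean in pre-MCS-01, and Slc2a1 and Bnip3 were both at -0.37. Ldha (-0.05 ± 0.25), Pgk1 (-0.10 ± 0.21), Egln3 (0.02 ± 0.54) and Car9 (-0.02 ± 0.28) were near 0, with 95% confidence intervals of -0.59 to 0.49, -0.57 to 0.37, -1.17 to 1.21 and -0.62 to 0.59. The median of the 10 was -0.37, beside 0.03 over all genes, and -0.01 without post-MCS-01 replicate 2. Egln3 alone was positive, 1 of 10 against 52.5% of all genes, and the groups overlapped for all 10 (10.7% of all genes were higher and 7.01% lower without overlap). None of the 10 passed in edgeR, where 0.824% of all genes did, nor in DESeq2 (2.45%), limma-voom (0.00615%) or limma-voom with quality weights (23.5%). Adm was the 1 of 10 at an unadjusted p under 0.05, against 4.2% of all genes lower at that level, and leaving out pre-MCS-01 replicate 2 gave 0 of 10, while leaving out replicate 3 of either group gave 2 of 10.

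Pre-MCS-01 against DSCG gave a median of 0.48, beside 0.03 over all genes, with 9 of 10 positive (54.6% of all genes). Pgk1 had a mean of 479 ± 8.16 CPM in pre-MCS-01, against 323 ± 61.0 CPM in DSCG (0.57 ± 0.22), and Egln3 one of 371 ± 132 CPM in pre-MCS-01, against 172 ± 97.5 CPM in DSCG (1.11 ± 0.55). Ldha, Pgk1 and Ndrg1 did not overlap, 3 of 10 against 2.53% of all genes. None passed in edgeR (0% of all genes), DESeq2 (0.0732%) or either limma-voom fit (0%), and 1 of 10, Pgk1, stood at an unadjusted p under 0.05 (0.959% of all genes were higher at that level). Leaving out pre-MCS-01 replicate 3 gave 0 of 10, leaving out DSCG replicate 1 gave 4, and leaving out pre-MCS-01 replicate 2 or post-MCS-01 replicate 3 gave 2. A joint test of the 4 groups also called 0 of 10 in edgeR (0% of all genes), with adjusted p from 0.327 for Pgk1 to 0.831 for Car9 and 4 of 10 at an unadjusted p under 0.05 (8.42% of all genes). In the joint test 1 of 10 stood at that level without post-MCS-01 replicate 2 or without blank replicate 1, and 6 of 10 without post-MCS-01 replicate 3 or without DSCG replicate 1. Leaving out any other single library gave 2 to 4 of 10. The shares of 0.959% and 8.42% come from all 12 libraries. The joint test called Pgk1 with DESeq2 (adjusted p = 0.0417, 3.19% of all genes) and Ldha, Pgk1 and Egln3 with quality weights (13.5% of all genes).

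Other genes of the pathway were read from lists of core glycolysis (16 genes), other hypoxia-induced genes (20), oxygen sensing and the factors (9), and pyruvate and lactate handling (11), of which all were tested. None passed in edgeR in any of the 6 comparisons. With limma-voom and quality weights 7 of 16 core glycolysis, 6 of 20 other hypoxia-induced and 1 of 11 pyruvate and lactate genes passed for pre-MCS-01 against blank, where 15.3% of all genes did. Of these counts, 1 of 11 is no more than the share over all genes. For post-MCS-01 against blank that fit called 4, 1 and 2 genes of the same lists, where 5.08% of all genes passed, so that 1 of 20 is no more than the share over all genes. For pre-MCS-01 against post-MCS-01 it called 3 of 16, 5 of 20 and 2 of 11, where 23.5% of all genes passed. These counts are near the share over all genes or below it. DESeq2 called 1 core glycolysis gene for post-MCS-01 against blank (2.34% of all genes), and 1 other hypoxia-induced and 2 pyruvate and lactate genes for post-MCS-01 against DSCG (3.54% of all genes). Without DSCG replicate 1, edgeR called 1 core glycolysis and 2 pyruvate and lactate genes for post-MCS-01 against DSCG, where 606 of 16526 genes passed. In the same fit 1 pyruvate and lactate gene was called for post-MCS-01 against blank, where 222 of 16526 genes passed. The fit of the post-MCS-01 and blank libraries alone also called 1 pyruvate and lactate gene, where 255 of 15850 genes passed. For post-MCS-01 against blank, 15 of 16 core glycolysis genes and 18 of 20 other hypoxia-induced genes were positive, with medians of 0.47 and 0.37, where 49.2% of all genes were positive. At an unadjusted p under 0.05 there were 5 and 4 genes, all higher, against 3.91% of all genes. Without post-MCS-01 replicate 2 the median of the other hypoxia-induced genes was 0.14, and without post-MCS-01 replicate 3 it was 0.57. Pgam1, phosphoglycerate mutase, had the smallest p of the core list, at 456, 675 and 403 CPM in post-MCS-01 and 314, 268 and 283 CPM in blank (0.83 ± 0.24, adjusted p = 0.239). In the same comparison the pyruvate and lactate list had 6 of 11 genes positive (median 0.06) and the oxygen sensing list 7 of 9 (median 0.14). Of the former list, Slc16a1 was higher in post-MCS-01 (1.17 ± 0.35, adjusted p = 0.264) and Slc16a7 lower (-1.72 ± 0.65, adjusted p = 0.411). These lists were chosen with earlier results known and the signs describe the libraries.

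Set beside DSCG, post-MCS-01 had 16 of 16 core glycolysis genes positive (median 0.48) and 17 of 20 other hypoxia-induced genes (median 0.46), where 49.4% of all genes were positive. The second of these medians was 0.17 once post-MCS-01 replicate 2 was left out. The first ran from 0.30 without DSCG replicate 3 to 0.71 without DSCG replicate 1. The pyruvate and lactate list had 7 of 11 genes positive (median 0.26) and the oxygen sensing list 7 of 9 (median 0.21). Slc16a1, a lactate and pyruvate transporter, stood at 113, 152 and 103 CPM in post-MCS-01 and 80.6, 31.4 and 34.1 CPM in DSCG, without overlap (1.34 ± 0.35, adjusted p = 0.130). Hif1a, the oxygen-regulated subunit of the factor, stood at 186, 316 and 157 CPM in post-MCS-01 and 132, 54.2 and 90.7 CPM in DSCG (1.25 ± 0.43, adjusted p = 0.264). Its protein is controlled mainly by degradation, which these counts do not measure. Stc2, a secreted hormone induced by stress, differed by 1.41 ± 0.42 (adjusted p = 0.182) and Pfkfb4, a relative of Pfkfb3, by 1.10 ± 0.37 (adjusted p = 0.254).

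In pre-MCS-01 against blank the medians of the core and the other hypoxia-induced lists were 0.39 (12 of 16 positive) and 0.41 (15 of 20 positive), where 54.1% of all genes were positive. Leaving out pre-MCS-01 replicate 3 gave a second median of 0.15, and leaving out blank replicate 2 gave 0.25. The hypoxia-responsive lipase inhibitor gene Angptl4 had the smallest p of its list and a lower mean in pre-MCS-01 (-0.74 ± 0.34, adjusted p = 0.690). The pyruvate and lactate list had 6 of 11 genes positive (median 0.02) and the oxygen sensing list 2 of 9 (median -0.13). In DSCG against blank the medians of the core and the other hypoxia-induced lists were 0.01 and -0.07, with 9 of 16 and 6 of 20 positive. In pre-MCS-01 against post-MCS-01 they were -0.16 and -0.14, with 3 of 16 and 5 of 20 positive, and -0.05 and 0.18 without post-MCS-01 replicate 2.

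**Figure D4:**
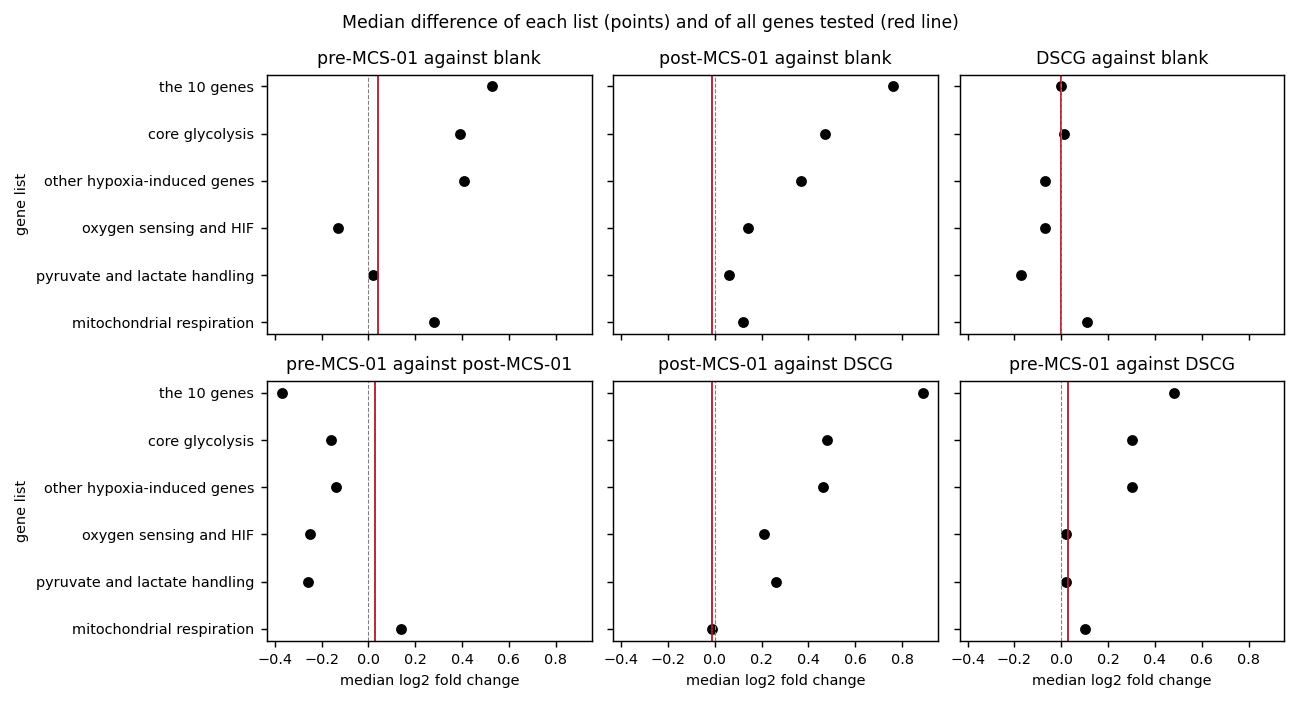
Median log2 fold change of the 10 genes and of 5 further lists (points) in the 6 comparisons, with the median of all genes tested as a red line. The 10 genes are at 0.76 for post-MCS-01 against blank, 0.53 for pre-MCS-01 against blank and 0.00 for DSCG against blank.

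Markers of other cells also differed between the libraries. Of 8 neutrophil markers, the 7 matched by symbol (S100a8, S100a9, Csf3r, Cxcr2, Retnlg, Mmp8 and Ngp), all detected in every group, summed to 3971 to 6395 CPM in pre-MCS-01 wounds, 4430 to 9984 CPM in post-MCS-01, 28.9 to 3650 CPM in DSCG and 485 to 879 CPM in blank. Both MCS-01 groups were above blank and DSCG without overlap, as they were for Pgk1 and Ldha. How many of all genes had that separation was not computed. The library with the highest sum was post-MCS-01 replicate 2, highest in 9 of the 10 genes, and the lowest was DSCG replicate 3, lowest in Pgk1 and Ldha. Pre-MCS-01 replicate 2, with 4392 CPM, had an average of the 10 genes of -0.28, below blank replicate 3 with 879 CPM and -0.12. The 5 markers of wound-activated keratinocytes (Krt6a, Krt6b, Krt16, Krt17 and Sprr1b) summed to 15617 to 18840 CPM in pre-MCS-01 wounds, 15496 to 26913 CPM in post-MCS-01, 6507 to 21072 CPM in DSCG and 9972 to 14337 CPM in blank, again highest in post-MCS-01 replicate 2 and lowest in DSCG replicate 3. The order was not shared throughout: DSCG replicate 2 had 21072 CPM of these markers and an average of the 10 genes of -0.40, and pre-MCS-01 replicate 2 had 18840 CPM and -0.28.

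Hair follicle markers ran the other way in part, with 9 genes summing to 12581 to 30847 CPM in pre-MCS-01 wounds, 28.9 to 84.5 CPM in post-MCS-01, 1986 to 40656 CPM in DSCG and 6657 to 19908 CPM in blank. Skeletal muscle, itself rich in glycolytic enzymes, gave 2490 to 3679 CPM over 7 markers in pre-MCS-01, 3589 to 7977 CPM in post-MCS-01, 3134 to 5695 CPM in DSCG and 2595 to 6982 CPM in blank, and these ranges overlapped. Macrophage markers (6 genes) summed to 237 to 459 CPM in pre-MCS-01 wounds, 568 to 958 CPM in post-MCS-01, 376 to 678 CPM in DSCG and 442 to 711 CPM in blank, so that pre-MCS-01 lay below post-MCS-01 without overlap. Adipocyte markers (5 genes) summed to 92.9 to 461 CPM in pre-MCS-01 wounds, 91.3 to 290 CPM in post-MCS-01, 347 to 676 CPM in DSCG and 386 to 701 CPM in blank, so that post-MCS-01 lay below DSCG and blank without overlap. Of 6 erythroid markers the 4 globin genes are listed at 0 in every group, and the other 2 summed to 13.6 to 24.3 CPM in pre-MCS-01 wounds, 6.05 to 7.504 CPM in post-MCS-01, 20.2 to 34.5 CPM in DSCG and 12.3 to 34.0 CPM in blank, lowest in post-MCS-01 without overlap. The part of these cell types in the levels of the 10 genes was not tested.

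**Figure D5:**
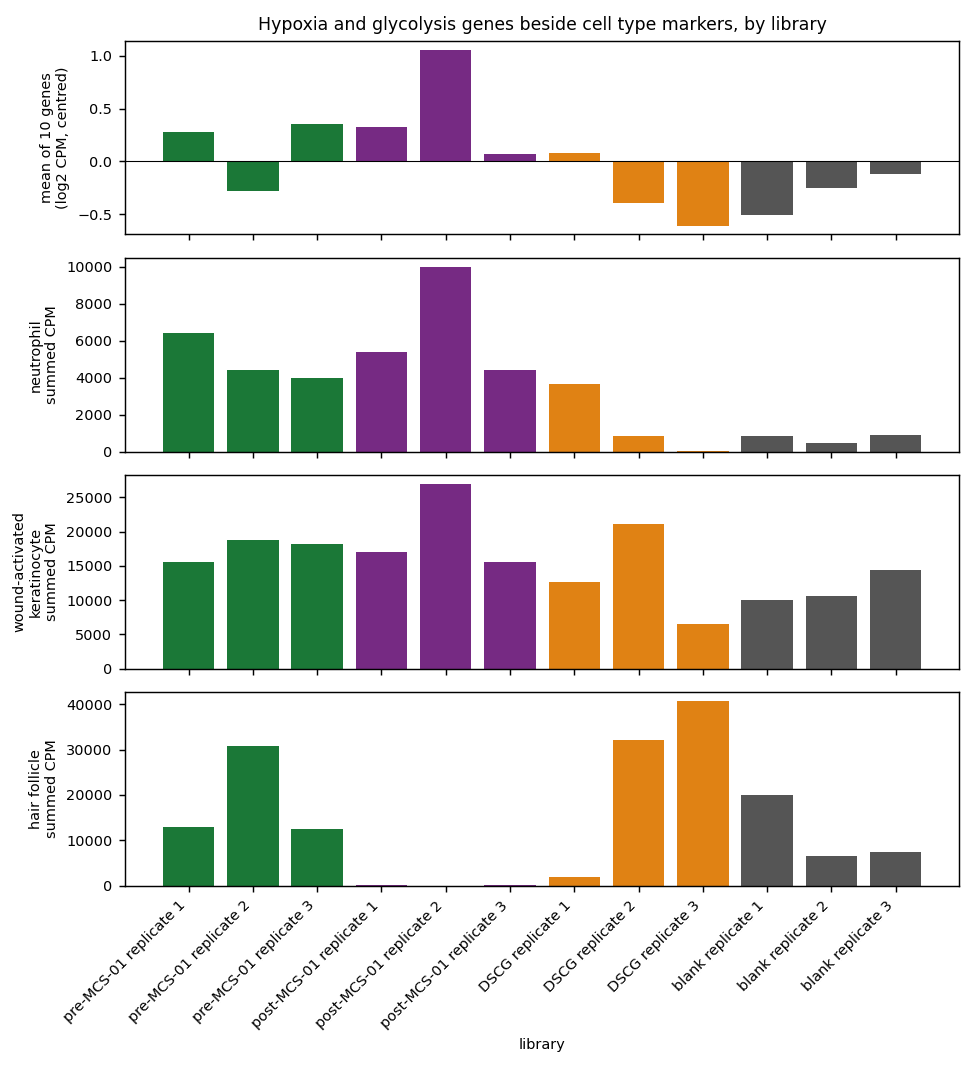
By library, the mean of the 10 genes as log2 CPM relative to the 12-library mean (top) and the summed CPM of neutrophil, wound-activated keratinocyte and hair follicle markers (lower panels, linear axes from 0). Post-MCS-01 replicate 2 has the tallest bar in the upper 3 panels, at 1.06, 9984 CPM and 26913 CPM.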

How the data were processed

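Per the labels, total RNA from wounds of 12 mice was taken with miRNeasy reagents, and TruSeq libraries were prepared. The deposited values are raw counts for 24062 gene symbols in each library, beside 5 summary lines that name no gene and were left out of totals. The submitters' processing notes name TopHat2, Bowtie2, FastQC, limma and HTSeq, and the build mm10. Versions, settings, the strand option and the annotation are not given in the sources used here. Reads that matched several places (17.2% to 23.4%) or no single gene (5.36% to 8.16%) stood in those lines.

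The analysis ran in R 4.3.3. The filter filterByExpr kept 16267 genes, all 10 members among them, and libraries were scaled with TMM factors of 0.905 to 1.07. Differences were tested with edgeR 4.0.16 (quasi-likelihood test, two-sided) in 1 model of 12 libraries with a mean per group, without a covariate. The Benjamini-Hochberg adjustment covered every gene tested, with a threshold of 0.05. A ± gives the SE of a fold change and the SD of a CPM mean. On simulated counts for post-MCS-01 against DSCG (16267 genes) the steps called 6 of 50 genes changed 2-fold, 30 of 50 changed 4-fold and 42 of 50 changed 8-fold, with 9 calls among 16067 unchanged genes.

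Libraries were grouped by the treatment label, and replicates were numbered in the order of the records, so the numbers pair nothing. Each library has its own mouse number. Exon lengths and gene positions come from GENCODE M21 (GRCm38), matched by symbol for 98.5% of symbols. The members, the other lists and the 3 libraries left out together were chosen with earlier results of these data known. The text names all 10 members. Of the other pathway lists it mostly names the gene of smallest p, and only in some comparisons, so these named genes are a choice. Alternatives were scaling by RLE or by total count, leaving out the filter, DESeq2 1.42.0, limma-voom (limma 3.58.1), the same with library quality weights, an exon-length covariate, a fit restricted to the 2 groups compared, and leaving out libraries.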

Additional observations from a re-analysis of the deposited data

How the results depend on the processing

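The median log2 fold changes of the 10 genes moved by less than the spread between libraries under all 21 alternatives of each comparison, from 0.52 to 0.97 for post-MCS-01 against blank, 0.49 to 1.17 for post-MCS-01 against DSCG, 0.36 to 0.67 for pre-MCS-01 against blank and -0.12 to 0.18 for DSCG against blank. For pre-MCS-01 against post-MCS-01 and against DSCG they ran from -0.60 to -0.01 and from 0.32 to 0.64. The count of genes passing stayed at 0 except with limma-voom and library quality weights, where it was 4 for pre-MCS-01 against blank, 2 for post-MCS-01 against blank and 3 in the joint test, and with DESeq2 in the joint test, where it was 1. The cause was not tested. Leaving out any 1 library gave 0 of 10 in every comparison. For pre-MCS-01 against blank, DSCG against blank and pre-MCS-01 against DSCG, 0 of all genes passed in those fits too. For post-MCS-01 against blank, 0 to 222 genes passed. For post-MCS-01 against DSCG it was 0 to 606, and for pre-MCS-01 against post-MCS-01 it was 0 to 254. Without the 3 libraries short of long transcripts the count was also 0 of 10, but 0 of 16270 genes passed there in any comparison. A count of 0 where 0 of all genes passed says nothing about these 10 in particular. The medians of the 10 without those 3 libraries were 0.91 for post-MCS-01 against blank, 0.79 for post-MCS-01 against DSCG and 0.67 for pre-MCS-01 against blank. For post-MCS-01 against DSCG, the number of the 10 at an unadjusted p under 0.05 ran from 1 to 8 without 1 library. The share of all genes at that level was not computed for these fits. No paired analysis was possible because the labels give every mouse a number of its own. Blank replicate 3, with 3835042 reads counted to genes, limits the precision of Car9 in particular, and counting error is the only error that a read count shows.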

Other observations

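Nuclear genes of mitochondrial respiration had medians between -0.01 and 0.28 in 4 comparisons, and their difference from the glycolytic genes was not tested. Of 20 such genes, among them the citrate synthase gene Cs and the ATP synthase genes Atp5a1 and Atp5b, 10 were positive for post-MCS-01 against DSCG, where the median was -0.01 on the log2 scale and 49.4% of all genes were positive. For post-MCS-01 against blank 14 of 20 were positive (median 0.12), against 49.2% of all genes, and 5 of 20 were higher without overlap, against 8.92% of all genes. For pre-MCS-01 against blank 18 of 20 were positive (median 0.28), against 54.1% of all genes, and for DSCG against blank 20 of 20 (median 0.11), against 49.8% of all genes. None passed in edgeR in any of these comparisons, and 0 of 20 stood at an unadjusted p under 0.05 in each of them. With other tools 0 of 20 passed in these comparisons, except 1 (15.3% of all genes) for pre-MCS-01 against blank with limma-voom and quality weights. The smallest p of these, of Atp5b for pre-MCS-01 against blank, went with a log2 fold change of 0.34 ± 0.19 (adjusted p = 0.720). The median for pre-MCS-01 against blank ran from 0.10 without pre-MCS-01 replicate 2 to 0.36 without blank replicate 3. For DSCG against blank it ran from 0.03 without DSCG replicate 2 to 0.17 without DSCG replicate 1. Replicate 2 of both treated groups and blank replicate 3 were short of long transcripts, and the part of transcript length in these medians was not tested.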
